A study of Ovis aries with 26 samples.

Results

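The genes of the proteasome were followed through sheep (Ovis aries) preimplantation development. They are the rows of the deposited expression table whose symbol begins with PSM, then a letter from A to G and a number, and the rule found 49 of the 30186 rows. By role they were the 7 α subunits of the core (PSMA1 to PSMA7), the 7 constitutive β subunits (PSMB1 to PSMB7), the 3 immunoproteasome β subunits (PSMB8 to PSMB10), the 2 tissue-restricted core subunits PSMA8 and PSMB11, the 6 ATPases (PSMC1 to PSMC6) and 11 non-ATPase subunits of the regulatory particle, and 3 chaperones of its assembly (PSMD5, PSMD9 and PSMD10). The other members were the 4 core assembly chaperones PSMG1 to PSMG4, the 4 activators PSME1 to PSME4, the inhibitor PSMF1, and PSME3IP1, an interaction partner of PSME3 that matched by name and is not a subunit. The 14 constitutive core and 17 regulatory particle subunits are together called the 31 constitutive subunits.

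The study sequenced polyadenylated RNA by Smart-seq2, a full-length method for small amounts of RNA, from directly lysed mature oocytes and from embryos fertilised and cultured in vitro. The 26 libraries fell into 8 stages of untreated material: 2 of MII oocytes (mature oocytes arrested in the second meiotic metaphase), 4 of 2C, 3 of 4C, 4 of 8C and 3 of 16C embryos (named by their number of cells), 3 of morulae, 3 of early blastocysts (EarlyB) and 4 of expanded blastocysts (ExpB). The labels give no strain, no age of the ewes and no count of oocytes or embryos pooled in a library. Nothing in them says that the libraries of a stage are separate animals or cultures, so the tests are against a library-to-library spread that may be technical.

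The proteasome degrades proteins that carry ubiquitin chains. Its core is a barrel in which rings of α subunits gate the entry and rings of β subunits hold the proteolytic sites, on PSMB6 (caspase-like), PSMB7 (trypsin-like) and PSMB5 (chymotrypsin-like). In cells of the immune system and under interferon, PSMB9, PSMB10 and PSMB8 replace these in newly built cores. The regulatory particle binds ubiquitinated proteins, and its ATPase ring unfolds them into the core, while the activators cap the core in its place. In the oocyte-to-embryo transition the proteasome is known for removing maternal proteins.

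Depth, read from the steps of the FPKM values, was 16 to 35.6 (in units of 1e6 assigned reads) per library, with the lowest range, 16 to 19.9, in early blastocysts. Of the 49 genes, 48 had at least 1 FPKM in at least 2 libraries and were tested; PSMB11 was not. Oocyte markers (9 genes) summed to 11.3 to 24.1 FPKM in expanded blastocysts and 5448 to 6156 in MII oocytes, and trophectoderm markers (8 genes) to 3330 to 7514 in expanded blastocysts and 5.59 to 6.09 in MII oocytes. One library of the 16C stage, 16C library 3, exceeded both other 16C libraries in 28 of the 31 constitutive subunits and was below both in 1. Over all genes tested its Pearson r was 0.913 with 16C library 1 and 0.923 with 16C library 2, against 0.962 between those libraries. Among 4C embryos, library 1 exceeded the others in 22 of 31, and its summed cumulus and granulosa markers (8 genes) were 244.7 FPKM, against 12 and 11.9 in the other 2, with 4.92 to 55.4 in 2C embryos; their part in the results was not tested. ExpB library 1 was the lowest of its stage in 20 of 31. Such counts per library were not made over all genes. In the reference annotation of the assembly ARS-UI_Ramb_v3.0, used for names and gene order alone, 12 members overlap another gene, and reads of such genes cannot be told apart where counting ignores strand.

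**Figure D1:**
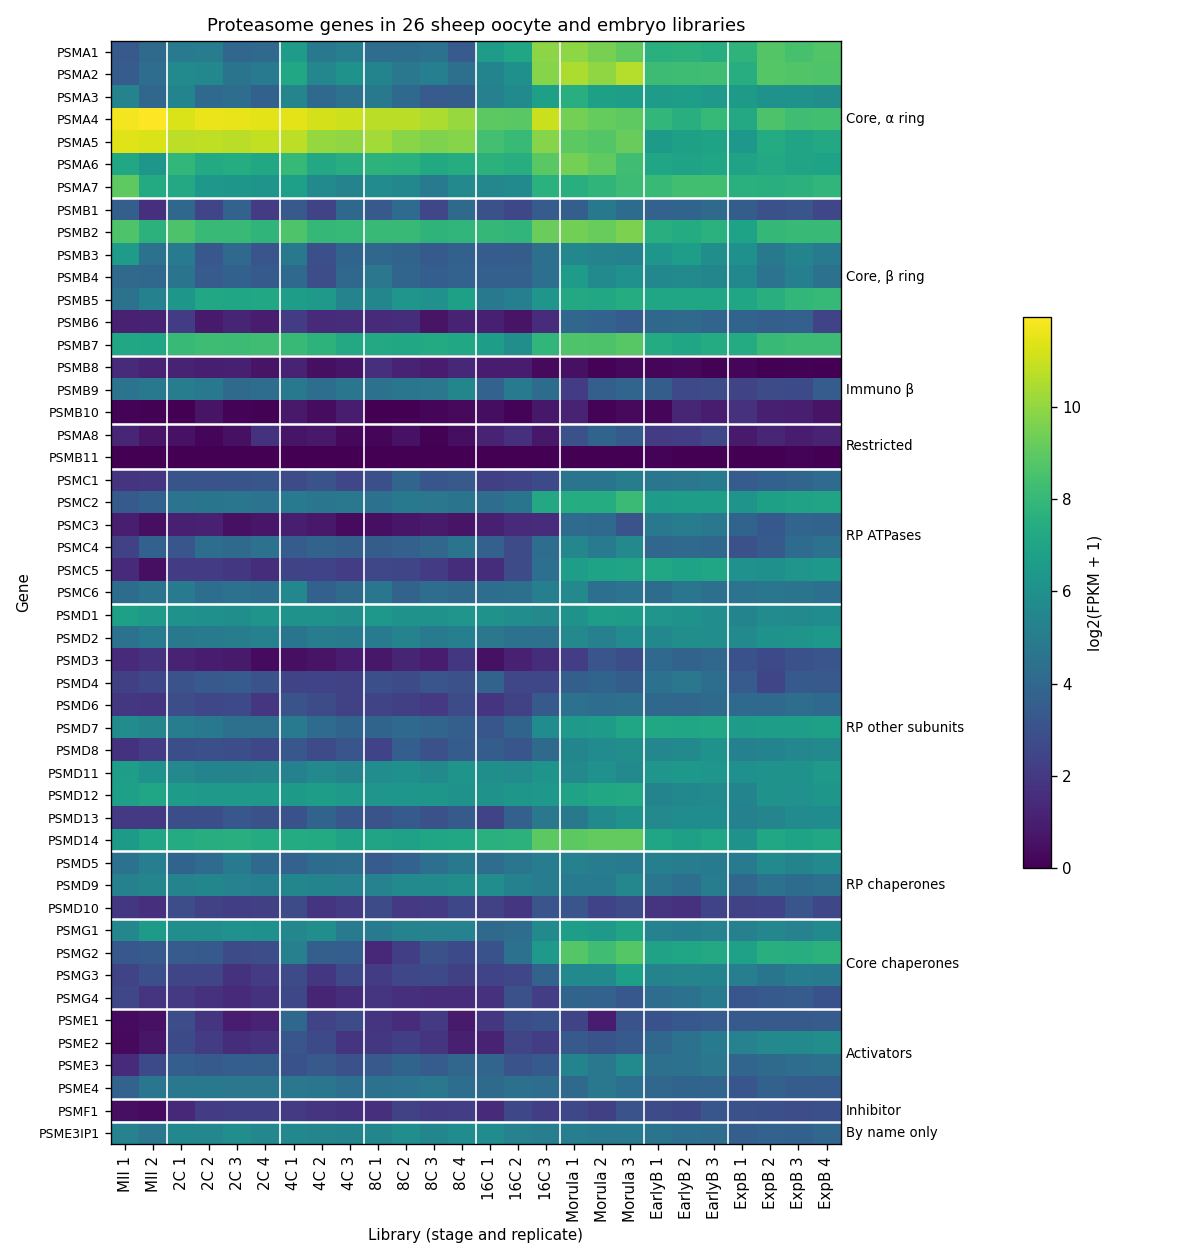
The heatmap shows log2(FPKM + 1) of each proteasome gene (rows, grouped by role) in each of the 26 libraries (columns, MII to ExpB). PSMA4 and PSMA5 are high from MII to 8C, and most rows of the core, regulatory particle and core chaperones are higher in the 3 morula libraries than in 16C libraries 1 and 2.

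The transition with most calls among successive stages was that from 16C to morula. A gene was called where limma's moderated test on log2(FPKM + 1) gave a Benjamini-Hochberg adjusted p under 0.05 over all genes tested and the difference of stage means was at least 1 in size. In morulae against 16C embryos, 28 of the 48 tested members were higher and 1 lower, beside 43.1% of all genes tested (28.1% higher and 15% lower). The median difference of the members was 1.35, against 0.32 over all genes tested. In whole embryos, a smaller share of cells of a type and less RNA per cell cannot be told apart. FPKM gives a gene's share of the library's fragments, scaled to its length, and not its amount per embryo. Summed over all genes, FPKM was 419071 to 682165 per library, so differences in FPKM between stages are not differences in share of that sum. Without 16C library 3 the count was 30 higher and 1 lower.

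Fewer members were called at the earlier steps, where fewer genes at large were called too. In 2C embryos against MII oocytes, 6 members were higher and 2 lower, 16.7% of those tested, beside 6.45% of all genes tested (4.44% higher and 2.01% lower). That count was 2 without MII library 1 and 5 without 2C library 2, 3 or 4. No member was called in 4C against 2C embryos (3 of 48 had an unadjusted p under 0.05 by limma), where 0.00634% of all genes were called higher and 0% lower. None was called in 8C against 4C embryos either (9 with an unadjusted p under 0.05), beside 0.907% of all genes (0.577% higher and 0.33% lower); the count was 3, all lower, without 16C library 3 and 1 without 16C library 1. In 16C against 8C embryos 5 were higher and 1 lower, 12.5% of those tested, beside 7.55% of all genes tested (5.54% higher and 2.01% lower). The split was 4 higher and 5 lower without 16C library 3.

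After the morula the direction of the calls was mostly downward. In early blastocysts against morulae, 3 members were higher and 13 lower, beside 27% of all genes tested (14.7% higher and 12.4% lower), with a median difference of -0.36 among members and 0.03 over all genes. In expanded against early blastocysts, 1 was higher and 4 lower, 10.4% of them and below the 17.7% of all genes, of which 4.65% were higher and 13.1% lower. The median difference in this last step was -0.11 among members and -0.3 over all genes, so members fell less than genes at large. With median-ratio scaling this last split was 2 higher and 0 lower. The 4 lower calls, of PSMA8, PSMC3, PSMD4 and PSMG4, all ended with that scaling.

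From end to end, in expanded blastocysts against MII oocytes, 23 members were higher and 6 lower, beside 53.7% of all genes tested (32.8% higher and 20.9% lower). The share of members called in either direction was 60.4%, near that of all genes.

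The α subunits form the outer rings of the core. Of the 7, PSMA4 (α3) and PSMA5 (α5) held most of the α transcripts in the oocyte and cleavage stages. PSMA4 had 3442 and 3969 FPKM in MII oocytes, 2487, 3085, 2972 and 2825 in 2C embryos, 2826, 2304 and 2094 in 4C embryos and 1662, 1678, 1417 and 1093 in 8C embryos. It had 496, 476 and 2024 FPKM in 16C embryos, 708, 562 and 504 in morulae, 237, 177 and 259.5 in early blastocysts and 148, 386, 313 and 324 in expanded blastocysts. PSMA4 was highest in MII oocytes and at most 386 FPKM in any blastocyst library, and 16C library 3 stood above the other 16C libraries.

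PSMA5 had 2658 and 2508 FPKM in MII oocytes, 1733, 1784, 1706 and 1858 in 2C embryos, 1763, 1066 and 1014 in 4C embryos and 1239, 911, 807 and 889 in 8C embryos. It had 332, 275 and 868 FPKM in 16C embryos, 498, 428 and 580.5 in morulae, 90.5, 109 and 116 in early blastocysts and 81.4, 163, 127 and 148 in expanded blastocysts. PSMA5 followed PSMA4 closely, with a Pearson r of 0.98 over the 26 libraries, a description over libraries that share stage and depth. In expanded blastocysts against MII oocytes the difference was -3.74 ± 0.41 (SE) for PSMA4 (adjusted p = 2.6e-08, limma) and -4.35 ± 0.33 (SE) for PSMA5 (adjusted p = 6.7e-11), with no overlap between the stages for either gene. In 16C against 8C embryos PSMA5 fell by 1.14 (adjusted p = 0.0093), with overlap: 16C library 3 lay within the 8C values. This call ended without 16C library 1 (difference -0.96, adjusted p = 0.042) or 16C library 2 (-0.82, adjusted p = 0.072).

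Together PSMA4 and PSMA5, singled out after their values were seen, made up 89.7% to 95.8% of the summed α FPKM in MII oocytes, 89.2% to 94.5% in 2C, 87.7% to 92.2% in 4C and 88.6% to 90% in 8C embryos. The share was 52.6% to 66.3% in 16C embryos, 25.8% to 28% in morulae, 21.4% to 27% in early blastocysts and 22.5% to 30% in expanded blastocysts. No morula or blastocyst library reached the lowest 16C library. FPKM is scaled to gene length, but other differences between genes in capture or counting remain in this share. Only polyadenylated RNA was sequenced, and the part of such differences was not tested.

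The opposite course was taken by PSMA1 (α6) and PSMA2 (α2). PSMA1 had 9.15 and 16.8 FPKM in MII oocytes, 30.0, 32.5, 14.3 and 15.9 in 2C embryos, 98, 27.9 and 33.1 in 4C embryos and 18.5, 18.8, 21.3 and 9.69 in 8C embryos. It had 94.1, 132 and 925 FPKM in 16C embryos, 966, 731 and 517 in morulae, 192, 203 and 171 in early blastocysts and 219, 425, 351 and 415 in expanded blastocysts. PSMA1 was at most 98 FPKM in the libraries from MII to 8C, and 16C library 3 was already within the range of the morulae. In 16C against 8C embryos PSMA1 rose by 3.7 ± 0.55 (SE) on the log2 scale (adjusted p = 4.4e-05, limma), a 22.5-fold ratio of mean FPKM (6.62-fold without 16C library 3), with every 16C library above every 8C library. The rise of 1.66 in morulae over 16C embryos (adjusted p = 0.017) came with overlap and ended without 16C library 1 (adjusted p = 0.15), 16C library 2 (0.095) or Morula library 1 (0.066).

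PSMA2 had 10.2 and 18.4 FPKM in MII oocytes, 51.3, 47.6, 23.1 and 29.7 in 2C embryos, 139.6, 45.4 and 67.5 in 4C embryos and 41, 26.7, 35 and 20.2 in 8C embryos. It had 41.2, 63.6 and 894 FPKM in 16C embryos, 1428, 995 and 1566 in morulae, 289, 306 and 314 in early blastocysts and 174, 452, 416 and 401 in expanded blastocysts. PSMA2 was lowest in the 2 MII libraries and highest in the 3 morula libraries. It rose by 3.28 ± 0.69 (SE) in morulae over 16C embryos (adjusted p = 2.9e-04), with no overlap. Its difference of 2.13 in 16C against 8C embryos (adjusted p = 0.027) was carried by 16C library 3: without it the difference was 0.77, adjusted p = 0.29. That call also ended without 8C library 2 (adjusted p = 0.057) or 8C library 4 (0.071). The mean of PSMA2 in morulae was 93.1-fold that in MII oocytes, and the mean of PSMA1 56.9-fold.

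PSMA3 (α7) had 37.6, 50.1 and 111 FPKM in 16C embryos, against 27.4, 16.2, 9.93 and 10.6 FPKM in 8C embryos. Every 16C library was above every 8C library, and the difference was 1.94 ± 0.43 (SE) (adjusted p = 0.0031). Its mean in morulae was 129.7 ± 40.7 FPKM (SD, n = 3); the call of 1.07 (adjusted p = 0.046) over 16C embryos passed narrowly and ended in 14 of the 26 fits that left out 1 library, among them those without Morula library 1 (adjusted p = 0.17) and 16C library 1 (0.21). PSMA6 (α1) had 128, 116 and 129 FPKM in early blastocysts, against 704, 528 and 312 FPKM in morulae, and was lower in every early blastocyst library.

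PSMA7 (α4) was high in MII library 1 and again in every morula and blastocyst library. PSMA7 had 501 and 159 FPKM in MII oocytes, 149, 82.3, 79.7 and 72 in 2C embryos, 107, 51.5 and 39.2 in 4C embryos and 54, 47.5, 28.6 and 47.8 in 8C embryos. It had 45.8, 51 and 196 FPKM in 16C embryos, 187, 224 and 289.7 in morulae, 264, 323 and 317 in early blastocysts and 192, 187, 207 and 229.5 in expanded blastocysts. MII library 1 was over 3 times as high as MII library 2, and blastocyst libraries lay between 187 and 323. PSMA7 was called lower in 2C embryos than in MII oocytes (-1.61, adjusted p = 0.032), but this ended without MII library 1 (difference -0.79, adjusted p = 0.76) and without 2C library 2 (adjusted p = 0.066), 2C library 3 (0.072) or 2C library 4 (0.076). In morulae over 16C embryos it rose by 1.56 ± 0.45 (SE) (adjusted p = 0.0048), with overlap at 16C library 3.

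In early blastocysts against morulae 5 of the 7 α subunits were called lower, beside 12.4% of all genes called lower. These 5 did not overlap between the stages, but the share of all genes without overlap was not counted. The differences were -2.24 for PSMA5 (adjusted p = 4.6e-06), -2.1 for PSMA2 (0.016), -1.96 for PSMA6 (3.2e-05), -1.92 for PSMA1 (0.0096) and -1.4 for PSMA4 (0.0048). The summed α FPKM was 1341 ± 49.5 in early blastocysts and 4039 ± 563 in morulae (SD, n = 3 each).

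**Figure D2:**
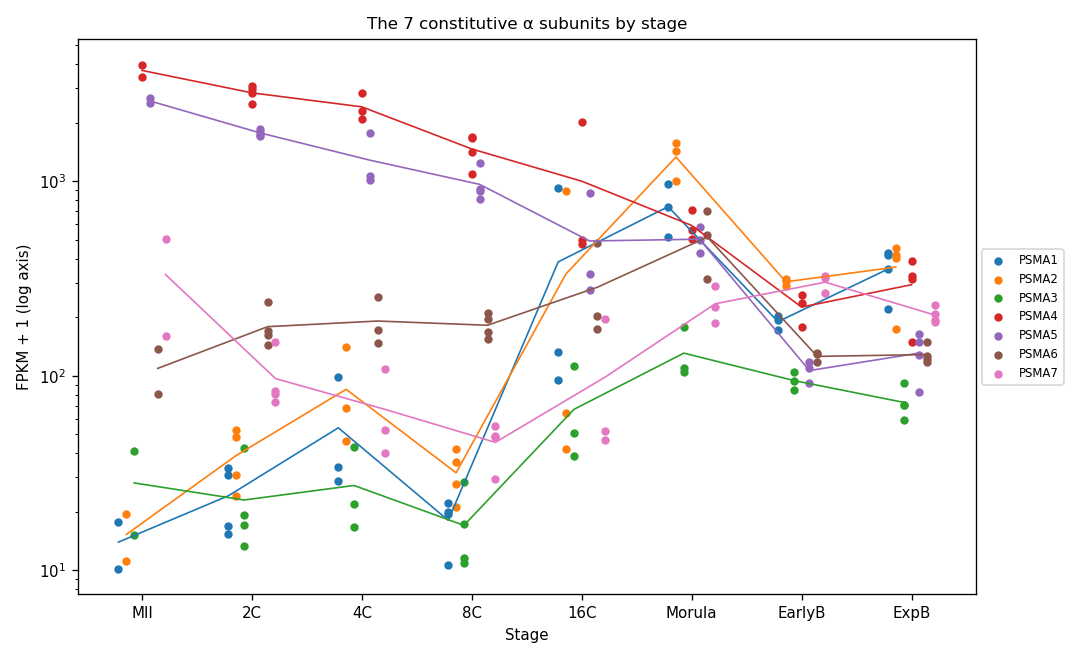
Each point is 1 library of the named stage (x axis) and the line joins stage means for the 7 α subunits, on a log axis of FPKM + 1. PSMA4 and PSMA5 lie above the other 5 in MII to 8C libraries, and the 7 genes lie closer together in early blastocysts.

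The 7 constitutive β subunits rose together into the morula: all 7 were called higher than in 16C embryos, beside 28.1% of all genes, with a median difference of 1.85. The 3 proteolytic subunits are followed here with the immunoproteasome subunits that replace them. PSMB5 had 21.8 and 36.7 FPKM in MII oocytes, 80.2, 136, 135 and 136 in 2C embryos, 104, 83.7 and 39.8 in 4C embryos and 43.7, 75, 64.2 and 109 in 8C embryos. It had 27.5, 34.6 and 75.1 FPKM in 16C embryos, 149, 139.6 and 170.1 in morulae, 130.2, 129.8 and 128 in early blastocysts and 130.0, 188, 241 and 257 in expanded blastocysts. PSMB5, the chymotrypsin-like subunit β5, had its lowest mean in MII oocytes, and 3 of the 4 expanded blastocyst libraries were above all others.

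PSMB5 rose by 2.03 ± 0.4 (SE) in 2C embryos over MII oocytes (adjusted p = 0.0017), though not without MII library 1 (1.67, adjusted p = 0.13). It rose by 1.85 ± 0.37 (SE) in morulae over 16C embryos (adjusted p = 1.7e-04). The stages did not overlap in either comparison. PSMB6 had 1.12 and 1.18 FPKM in MII oocytes, 3.31, 0.793, 1.34 and 0.921 in 2C embryos, 3.43, 1.68 and 1.86 in 4C embryos and 1.81, 1.94, 0.554 and 1.22 in 8C embryos. It had 1.1, 0.561 and 1.85 FPKM in 16C embryos, 14.4, 12.4 and 10.3 in morulae, 15, 16.3 and 13.8 in early blastocysts and 13.4, 11.2, 11.9 and 4.49 in expanded blastocysts. PSMB6, the caspase-like subunit β1, was at least 4.49 FPKM in every morula and blastocyst library and at most 3.43 in every library up to 16C.

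The rise of PSMB6 in morulae over 16C embryos was 2.66 ± 0.34 (SE) (adjusted p = 7.5e-07), a 10.6-fold ratio of mean FPKM. PSMB7 had 143 and 129.6 FPKM in MII oocytes, 266, 302, 292 and 309 in 2C embryos, 275, 208 and 149 in 4C embryos and 148, 138, 159 and 141 in 8C embryos. It had 104, 58.7 and 232 FPKM in 16C embryos, 409.9, 394 and 455 in morulae, 163, 132 and 163 in early blastocysts and 163, 274, 289 and 289 in expanded blastocysts. PSMB7, the trypsin-like subunit β2, was high throughout, with its highest libraries in morulae and its lowest in 16C library 2. It rose by 1.89 ± 0.31 (SE) in morulae over 16C embryos (adjusted p = 2.0e-05) and fell by 1.46 in early blastocysts against morulae (adjusted p = 6.0e-04), with no overlap in either. Its call of 1.09 (adjusted p = 0.036) in 2C embryos over MII oocytes ended when any of MII library 1 or 2, or 2C library 2, 3 or 4, was left out (adjusted p = 0.26, 0.16, 0.069, 0.068 and 0.073).

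The 4 β subunits without a proteolytic site were PSMB1, PSMB2, PSMB3 and PSMB4. PSMB4 had 94.9, 50.1 and 65.2 FPKM in morulae, against 11.7, 11.6 and 19.9 FPKM in 16C embryos, and the stages did not overlap (difference 2.2 ± 0.38 SE, adjusted p = 2.7e-05). PSMB3 had 46.8, 40.1 and 37 FPKM in morulae, against 10.2, 10.6 and 20.6 FPKM in 16C embryos, again with no overlap (difference 1.58 ± 0.5 SE, adjusted p = 0.0086). PSMB3 had 28, 8.38, 16.2 and 8.0 FPKM in 2C embryos, against 96 and 21.8 FPKM in MII oocytes, with overlap, and its lower call in 2C embryos (-1.71, adjusted p = 0.038) rested on MII library 1, without which it was -0.67, adjusted p = 0.89. It also ended without 2C library 2 (adjusted p = 0.1), 2C library 3 (0.054) or 2C library 4 (0.1).

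PSMB2 had 685, 573 and 774 FPKM in morulae, against 251, 232 and 598 FPKM in 16C embryos, overlapping through 16C library 3. The PSMB2 call in morulae (1.04, adjusted p = 0.0095) ended without 16C library 1 (adjusted p = 0.054), 16C library 2 (0.066) or Morula library 3 (difference 0.94). In early blastocysts PSMB2 had 185, 162 and 198 FPKM, all below the morulae (difference -1.89, adjusted p = 7.5e-05). PSMB1 had 11.5, 27.5 and 17.9 FPKM in morulae, against 6.92, 5.0 and 9.63 FPKM in 16C embryos, with no overlap but a narrow call (1.24, adjusted p = 0.047) that ended without 16C library 2 (adjusted p = 0.15), Morula library 2 (0.18) and 10 other single libraries.

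Of the immunoproteasome subunits PSMB9 (β1i) was the abundant one. PSMB9 had 22.8 and 27.3 FPKM in MII oocytes, 31.1, 27.2, 16.7 and 18 in 2C embryos, 27.9, 19.3 and 24.8 in 4C embryos and 21, 25, 26.1 and 43.9 in 8C embryos. It had 12.4, 30.3 and 17.5 FPKM in 16C embryos, 3.41, 11.2 and 14 in morulae, 10.4, 5.21 and 5.8 in early blastocysts and 4.46, 5.88, 5.45 and 10.3 in expanded blastocysts. Every morula or blastocyst library had at most 14 FPKM of PSMB9, and every library from MII to 16C at least 12.4, so the 2 spans overlapped only through 16C library 1 and Morula library 3. PSMB9 was lower in morulae than in 16C embryos (-1.09, adjusted p = 0.02), a call that ended without 16C library 2 (-0.76, adjusted p = 0.13) or Morula library 1 (-0.55, adjusted p = 0.21). Over the whole course, in expanded blastocysts against MII oocytes, it fell by 1.84 (adjusted p = 4.6e-04), with no overlap.

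PSMB8 had 1.7 and 1.26 FPKM in MII oocytes, 1.29, 1.02, 1.08 and 0.545 in 2C embryos, 1.21, 0.394 and 0.586 in 4C embryos and 2.13, 1.25, 0.891 and 1.55 in 8C embryos. It had 0.865, 0.902 and 0.243 FPKM in 16C embryos, 0.455, 0.0772 and 0.181 in morulae, 0.167, 0.195 and 0.0393 in early blastocysts and 0.121, 0.0308, 0.064 and 0.0308 in expanded blastocysts. PSMB8 (β5i) was low throughout, at most 2.13 FPKM, and at most 0.195 in every blastocyst library. In expanded blastocysts against MII oocytes it fell by 1.22 on the log2(FPKM + 1) scale (adjusted p = 3.5e-05), which understates changes of genes this low. PSMB10 had 0.0773 and 0.0638 FPKM in MII oocytes, 0, 0.554, 0.0963 and 0.0636 in 2C embryos, 0.764, 0.33 and 0.889 in 4C embryos and 0, 0.031, 0.137 and 0.248 in 8C embryos. It had 0.367, 0.0692 and 0.719 FPKM in 16C embryos, 1.18, 0.0691 and 0.244 in morulae, 0.112, 1.44 and 0.897 in early blastocysts and 2.28, 1.07, 1.03 and 0.537 in expanded blastocysts. PSMB10 (β2i) was at or under 2.28 FPKM everywhere. Its call in expanded blastocysts over MII oocytes (1.0, adjusted p = 0.0064) lay at the limit of 1 and ended without MII library 2 (difference 1.0, below the limit before rounding) or ExpB library 1 (0.8).

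The ratio of PSMB9 to PSMB6 differed between stages. The mean log2 ratio of PSMB9 to PSMB6, each as FPKM + 1, was 3.59 in MII oocytes, 3.27 in 2C, 2.93 in 4C, 3.64 in 8C and 3.23 in 16C embryos, then -0.51 in morulae, -1.03 in early and -0.55 in expanded blastocysts. The highest library from the morula on had a ratio of 1.04 and the lowest library up to 16C 2.67, so PSMB9 exceeded PSMB6 in every library of the first 5 stages. PSMB6 was at 0.554 to 3.43 FPKM in those libraries, near the added 1. In morulae against 16C embryos the difference was 2.66 for PSMB6 and -1.09 for PSMB9, so the larger part of the step came from PSMB6. In the reference annotation PSMB6 overlaps another gene, C11H17orf114. A permutation test of F over stage labels gave an adjusted p of 4e-05 over the 4 ratios tested (p = 1e-05, the smallest that 100000 resamples can give).

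For PSMB8 to PSMB5 the mean ratio was negative at every stage, -7.55 in expanded blastocysts and -3.57 in MII oocytes (permutation test, adjusted p = 4e-05). For PSMB10 to PSMB7 stage means lay between -8.2 in morulae and -6.38 in 16C embryos (permutation test, adjusted p = 0.00565). With PSMB8 and PSMB10 near or under the added 1, these 2 ratios mostly carry the levels of PSMB5 and PSMB7 and are no measure of a change in PSMB8 or PSMB10. Of 9 leukocyte markers in the table none had a mean of 1 FPKM or more at any stage from MII to 16C. In morulae 2 did, and in early and in expanded blastocysts 1 did. PTPRC (CD45) was at 0 to 0.015 FPKM in MII oocytes and reached 0.509 in early blastocysts, its highest value. The part of leukocytes in the values of these subunits was not tested. In the reference annotation TAP2, PSMB8, TAP1 and PSMB9 follow one another.

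**Figure D3:**
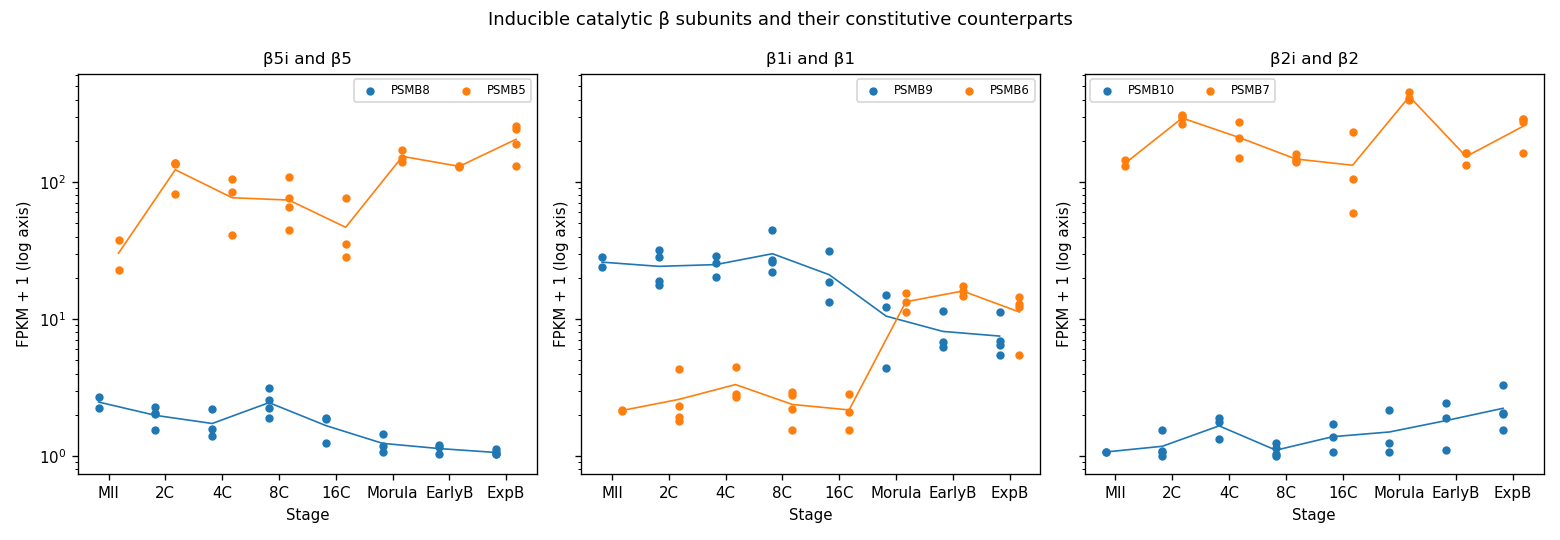
Each panel plots an immunoproteasome subunit and the constitutive subunit it can replace, as FPKM + 1 on a log axis by stage, with points for libraries and lines through stage means. PSMB9 lies above PSMB6 in every library up to 16C, while PSMB8 and PSMB10 lie below PSMB5 and PSMB7 in every library.

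Of the tissue-restricted core subunits, PSMB11, the β5t of the thymus, was at 0 FPKM in all but 3 libraries and reached 0.0865 at most. PSMA8, the α4s of male meiotic cells, had a transient level in morulae. PSMA8 had 1.43 and 0.563 FPKM in MII oocytes, 0.487, 0.112, 0.428 and 2.31 in 2C embryos, 0.605, 0.768 and 0.177 in 4C embryos and 0.165, 0.493, 0.0441 and 0.347 in 8C embryos. It had 1.26, 2.16 and 0.717 FPKM in 16C embryos, 6.7, 13.6 and 9.56 in morulae, 3.31, 3.5 and 4.86 in early blastocysts and 0.843, 1.42, 0.888 and 1.3 in expanded blastocysts. The 3 morula libraries were above all others. In morulae over 16C embryos PSMA8 rose by 2.2 ± 0.32 (SE) (adjusted p = 3.2e-06), and it fell by 1.13 in early blastocysts against morulae (adjusted p = 0.0056), a call that ended without Morula library 2 (difference -0.9).

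In expanded against early blastocysts PSMA8 fell by 1.21 (adjusted p = 0.0026), with no overlap. The mean log2 ratio of PSMA8 to PSMA7 was -7.18 in MII oocytes, -4.44 in morulae and -6.61 in expanded blastocysts, so PSMA7, whose own level also sets this ratio, lay far above it (permutation test over the 8 stages, adjusted p = 0.00813). PSMA8 is one of the members that overlap another gene, SS18. Sperm markers (7 genes) summed to 11.6 to 20.4 FPKM in morulae and 0.728 to 7.81 in 16C embryos; their part in the PSMA8 values was not tested.

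The 6 ATPases of the regulatory particle form the unfolding ring. In morulae over 16C embryos 5 of them were called higher, beside 28.1% of all genes called higher. None of these 5 overlapped between the stages, but the share of all genes without overlap was not counted. PSMC5 had 1.75 and 0.397 FPKM in MII oocytes, 3.23, 3.34, 2.87 and 1.93 in 2C embryos, 4.47, 4.23 and 3.58 in 4C embryos and 4.78, 4.65, 3.35 and 1.95 in 8C embryos. It had 1.99, 5.59 and 19.4 FPKM in 16C embryos, 101, 119 and 125 in morulae, 141, 121 and 135 in early blastocysts and 64.9, 63.8, 73.7 and 82.4 in expanded blastocysts. PSMC5 was at least 63.8 FPKM in every morula and blastocyst library, and at most 5.59 in every earlier one except 16C library 3. It rose by 3.97 ± 0.41 (SE) in morulae over 16C embryos (adjusted p = 3.5e-08). Its means in early blastocysts and MII oocytes, 132 ± 10.7 and 1.07 ± 0.959 FPKM (SD, n = 3 and 2), differed 123-fold, or 334-fold without MII library 1 and 75.6-fold without MII library 2.

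PSMC3 had 0.995 and 0.41 FPKM in MII oocytes, 1.1, 1.16, 0.433 and 0.643 in 2C embryos, 1.03, 0.769 and 0.293 in 4C embryos and 0.398, 0.626, 0.796 and 0.57 in 8C embryos. It had 1.05, 1.76 and 1.86 FPKM in 16C embryos, 16.9, 16.2 and 7.27 in morulae, 27.7, 31.1 and 26.6 in early blastocysts and 13.2, 8.66, 13.9 and 13.2 in expanded blastocysts. PSMC3 peaked in early blastocysts, and was at most 1.86 FPKM in every library up to 16C. It rose by 2.43 ± 0.26 (SE) in morulae over 16C embryos (adjusted p = 5.7e-08) and fell by 1.17 in expanded against early blastocysts (adjusted p = 6.2e-04), without overlap. Its rise of 1.11 (adjusted p = 0.0014) in early blastocysts over morulae ended without Morula library 3 (difference 0.75).

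PSMC1 had 2.5 and 2.7 FPKM in MII oocytes, 7.67, 7.45, 7.55 and 8.33 in 2C embryos, 5.88, 7.23 and 4.91 in 4C embryos and 6.55, 14.1, 8.19 and 9.26 in 8C embryos. It had 3.85, 4.21 and 5.4 FPKM in 16C embryos, 23.3, 24.3 and 32 in morulae, 24.7, 25.7 and 30.3 in early blastocysts and 10.3, 11.9, 13.8 and 17.1 in expanded blastocysts. PSMC1 had 2 steps up: in 2C embryos over MII oocytes (1.28, adjusted p = 8.7e-04) and in morulae over 16C embryos (2.32 ± 0.22 SE, adjusted p = 7.7e-09). Both were free of overlap, and the first kept its call whichever single library was left out. PSMC2 had 9.62 and 11.9 FPKM in MII oocytes, 22.6, 23.9, 24.5 and 22.1 in 2C embryos, 28.2, 25 and 27 in 4C embryos and 20.7, 27.1, 25.7 and 22.9 in 8C embryos. It had 18.3, 24.4 and 148 FPKM in 16C embryos, 171, 169 and 285 in morulae, 94.4, 101 and 103 in early blastocysts and 72.3, 109, 117 and 124 in expanded blastocysts. PSMC2 in 16C library 3 lay just under the morulae, and the 2 other 16C libraries lay at the level of 8C embryos. The difference in morulae over 16C embryos was 2.28 ± 0.44 (SE) (adjusted p = 9.6e-05).

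PSMC4 had 44.7, 29.2 and 47.7 FPKM in morulae, against 11.6, 5.57 and 18.4 FPKM in 16C embryos (difference 1.8 ± 0.43 SE, adjusted p = 8.7e-04), with every morula library the higher. In early blastocysts PSMC4 had 14.4, 16.1 and 15.3 FPKM, below the morulae (difference -1.32, adjusted p = 0.013), a call lost without Morula library 3 (-1.19, adjusted p = 0.051). PSMC6 was called in no comparison: its stage means ranged 1.67-fold, from the highest, 30.2 ± 15.8 FPKM in morulae (SD, n = 3), to the lowest, 18.1 ± 4.89 in 8C embryos (SD, n = 4).

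Among the 11 non-ATPase subunits, 5 rose in morulae over 16C embryos and the other 6 were not called. The 45.5% called, all higher, stand beside 28.1% of all genes called higher and 43.1% called in either direction. PSMD7 and PSMD14 form the pair that removes ubiquitin chains, PSMD14 carrying the active site. PSMD14 had 90.0 and 135 FPKM in MII oocytes, 162, 176, 188 and 161 in 2C embryos, 164, 158 and 117 in 4C embryos and 126, 113, 131 and 140.2 in 8C embryos. It had 194, 202 and 497 FPKM in 16C embryos, 491, 546 and 537 in morulae, 130.2, 110.1 and 129 in early blastocysts and 67.8, 144, 120.4 and 142 in expanded blastocysts. PSMD14 was highest in morulae, with 16C library 3 among them, and lower in every early blastocyst library. It fell by 2.09 there (adjusted p = 3.6e-06). The rise of 1.08 (adjusted p = 0.0075) in 16C over 8C embryos, with no overlap, fell short of the limit without 16C library 3 (0.63, adjusted p = 0.082).

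PSMD7 had 52.8 and 41.7 FPKM in MII oocytes, 31.9, 27.3, 20.0 and 20.1 in 2C embryos, 28.7, 17.4 and 13.3 in 4C embryos and 13.4, 15.9, 14 and 11.4 in 8C embryos. It had 8.06, 13.5 and 55.7 FPKM in 16C embryos, 88.6, 96.5 and 128 in morulae, 143, 129 and 137 in early blastocysts and 97.6, 104, 99 and 112 in expanded blastocysts. PSMD7 was lowest in 16C library 1 and at least 88.6 FPKM in every morula and blastocyst library. Its rise in morulae over 16C embryos was 2.41 ± 0.4 (SE) (adjusted p = 1.8e-05). PSMD8 had 43.8, 53.9 and 58.3 FPKM in morulae, against 10.6, 8.28 and 16.6 FPKM in 16C embryos. PSMD13 had 27.5, 49.9 and 68.8 FPKM in morulae, against 4.53, 11.8 and 26.6 FPKM in 16C embryos. Neither PSMD8 nor PSMD13, both of the lid, overlapped between these stages; the differences were 2.09 ± 0.26 (SE) (adjusted p = 5.3e-07) and 1.9 ± 0.37 (SE) (adjusted p = 1.4e-04).

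PSMD6 had 20.9, 18.6 and 20.3 FPKM in morulae, against 2.42, 4.19 and 9.58 FPKM in 16C embryos, a lid subunit whose rise was 1.87 ± 0.29 (SE) (adjusted p = 9.0e-06). PSMD3 had 3.49, 7.93 and 6.04 FPKM in morulae, against 0.472, 1.16 and 2.01 FPKM in 16C embryos (difference 1.63, adjusted p = 4.8e-05). Both rose without overlap. PSMD3, also of the lid, had 16.2, 12.8 and 14.2 FPKM in early blastocysts, all above the morulae (difference 1.22, adjusted p = 0.0015), though not without Morula library 1 (difference 0.95).

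PSMD12 had 41.6, 46.6 and 51.6 FPKM in early blastocysts, against 116, 143 and 147 FPKM in morulae. This lid subunit fell by 1.52 ± 0.18 (SE) with no overlap (adjusted p = 6.0e-07). PSMD4 had 9.73, 4.67, 9.51 and 9.25 FPKM in expanded blastocysts, against 21.2, 25.9 and 18.7 FPKM in early blastocysts. PSMD4, a receptor for ubiquitin chains, fell by 1.34 without overlap (adjusted p = 2.5e-04). The remaining 3 were the scaffolds PSMD1 and PSMD2 and the lid subunit PSMD11, called in no successive comparison. Stage means ranged 1.94-fold for PSMD1 and 2.0-fold for PSMD11, both highest in MII oocytes, and PSMD2 was higher in expanded blastocysts (68.8 ± 13.1 FPKM, SD, n = 4) than in MII oocytes (24.5 ± 5.21, n = 2) by 1.45 (adjusted p = 2.3e-06).

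The levels of the 31 constitutive subunits lay closer together in blastocysts than in oocytes. The SD of log2 FPKM across the 31 was 3.16 in both MII libraries, 2.7 to 3.06 in 2C, 2.72 to 2.87 in 4C, 2.53 to 2.72 in 8C and 2.43 to 2.83 in 16C embryos. It was 2.0 to 2.19 in morulae, 1.35 to 1.4 in early blastocysts and 1.51 to 1.96 in expanded blastocysts. The highest of the 31 exceeded the lowest 23-fold to 25.3-fold in early blastocysts, and 3460-fold and 10000-fold in the 2 MII libraries. Early blastocysts were also the libraries of lowest depth, whose part was not tested. Nothing was added to FPKM for this SD, and 1 to 2 of the 31 were under 1 FPKM in the MII libraries, against 0 in early blastocysts. The same spread over other genes was not computed, so it is not shown to be particular to these subunits.

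Of the 31, 14 had their highest stage mean in morulae, 10 in early blastocysts, 5 in MII oocytes and 2 in expanded blastocysts, and 14 had their lowest in MII oocytes. Such counts were not made over all genes, so they are not shown to be particular to these subunits. The median difference over all genes tested was 0.32 in morulae over 16C embryos and 0.33 in expanded blastocysts over MII oocytes. The 5 that were highest in MII oocytes were PSMA4, PSMA5, PSMA7, PSMD1 and PSMD11. The summed FPKM of the core was 2312 ± 497 in expanded blastocysts (SD, n = 4) and 7333 ± 219 in MII oocytes (SD, n = 2). PSMA4 and PSMA5, with means of 3706 and 2583 FPKM, made up most of that oocyte sum. The sum of the regulatory particle was 836 ± 132 FPKM in expanded blastocysts and 544 ± 15.6 in MII oocytes. As a share of a library's summed FPKM, the regulatory particle was at 0.0964% to 0.155% and 0.104% to 0.125%, with overlap. Across the 26 libraries the median r of log2(FPKM + 1) was 0.35 over 91 pairs of core subunits, 0.42 over 136 pairs of regulatory particle subunits and 0.4 over 238 pairs of 1 each, a description over libraries that share stages.

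**Figure D4:**
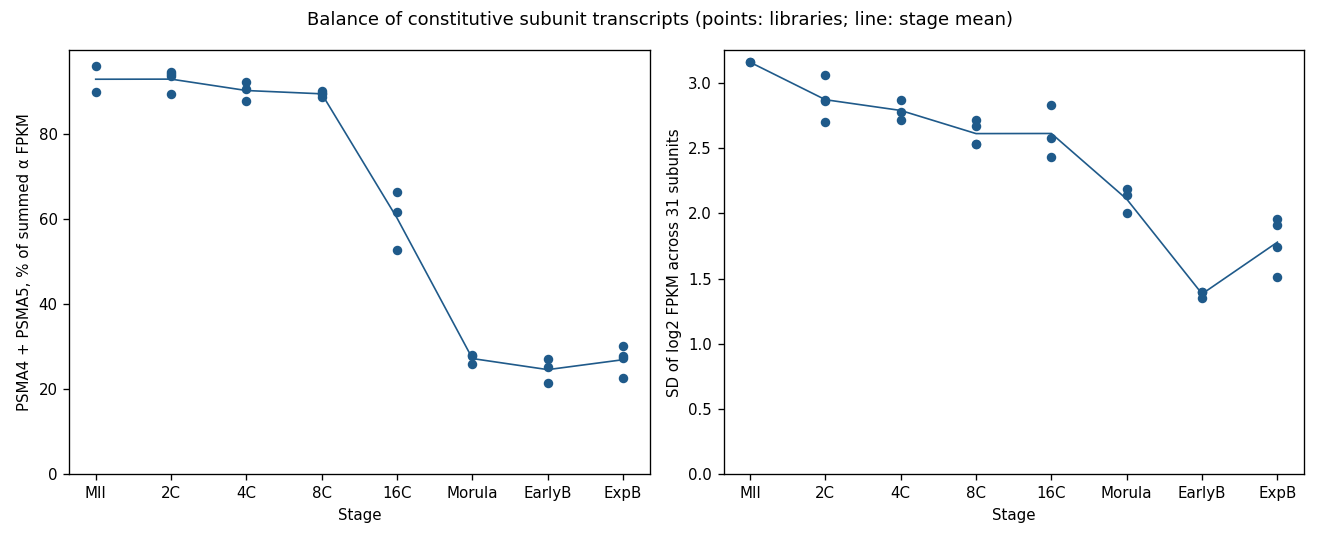
The left panel plots PSMA4 plus PSMA5 as a percentage of the summed α FPKM, and the right panel the SD of log2 FPKM across the 31 constitutive subunits, by stage with 1 point per library. The share is at least 87.7% up to 8C, at 52.6% to 66.3% in 16C embryos and at or under 30% afterwards, and the SD is lowest in early blastocysts.

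The activators cap the core without ATP. PSME1 and PSME2 together form PA28αβ, which interferon induces and which is tied to antigen processing. PSME2 had 0.23 and 0.644 FPKM in MII oocytes, 5.35, 3.22, 1.98 and 2.27 in 2C embryos, 8.21, 5.38 and 2.6 in 4C embryos and 2.81, 3.61, 2.52 and 1.07 in 8C embryos. It had 1.2, 4.73 and 3.46 FPKM in 16C embryos, 8.99, 7.68 and 9.5 in morulae, 15.1, 21.6 and 30.2 in early blastocysts and 38.3, 47.7, 51 and 58.5 in expanded blastocysts. PSME2 was at least 38.3 FPKM in every expanded blastocyst library and under 1 in both MII libraries. It was called higher in 4 of the 7 successive comparisons and rose by 5.12 ± 0.39 (SE) in expanded blastocysts over MII oocytes (adjusted p = 7.2e-11, limma). This was a 112-fold ratio of means over an oocyte mean under 1 FPKM, 75.9-fold without MII library 1 and 213-fold without MII library 2.

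The smaller steps of PSME2 rested on single libraries, although none of its stages overlapped in them. The step in 2C embryos over MII oocytes (1.5, adjusted p = 0.015) ended without MII library 1 (adjusted p = 0.3). That in morulae over 16C embryos (1.34, adjusted p = 0.0032) ended without 16C library 1 (difference 0.94), that in early blastocysts over morulae (1.21, adjusted p = 0.0096) without EarlyB library 3 (adjusted p = 0.06), and that in expanded over early blastocysts (1.14, adjusted p = 0.012) without EarlyB library 1 (adjusted p = 0.081).

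PSME1 had 0.293 and 0.453 FPKM in MII oocytes, 6.07, 2.44, 0.944 and 1.27 in 2C embryos, 15.1, 4.54 and 5.8 in 4C embryos and 2.55, 1.82, 3.14 and 0.793 in 8C embryos. It had 2.72, 6.43 and 6.97 FPKM in 16C embryos, 4.38, 0.917 and 7.27 in morulae, 7.13, 8.81 and 9.66 in early blastocysts and 9.44, 9.4, 9.42 and 10.3 in expanded blastocysts. PSME1 was lowest in the 2 MII libraries, varied between the libraries of the 4C and morula stages and lay at 9.4 to 10.3 FPKM in expanded blastocysts. It was called in no successive comparison and was higher in expanded blastocysts than in MII oocytes by 2.95 ± 0.51 (SE) (adjusted p = 2.0e-05). In the reference annotation PSME2, EMC9 and PSME1 are neighbours and EMC9 overlaps PSME1.

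PSME3 had 1.72 and 5.36 FPKM in MII oocytes, 10.8, 9.3, 10.9 and 11.3 in 2C embryos, 7.18, 9.12 and 6.93 in 4C embryos and 8.96, 13.5, 10.2 and 14.3 in 8C embryos. It had 13.8, 7.38 and 9.32 FPKM in 16C embryos, 40.8, 26.2 and 50.1 in morulae, 20.5, 21.9 and 26.1 in early blastocysts and 13.7, 16.6, 18.3 and 20.6 in expanded blastocysts. PSME3, which forms the nuclear activator PA28γ, was highest in morulae, in each of which it exceeded all other libraries. It rose by 1.83 ± 0.28 (SE) over 16C embryos (adjusted p = 5.2e-06). Its rise of 1.47 (adjusted p = 0.002) in 2C embryos over MII oocytes, free of overlap, ended without MII library 1 (0.86, adjusted p = 0.26).

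PSME4 had 12.5 and 25.2 FPKM in MII oocytes, 27, 27.3, 25.3 and 26.1 in 2C embryos, 25.4, 24.6 and 19.8 in 4C embryos and 21, 22.2, 25.8 and 18.8 in 8C embryos. It had 16.6, 20.5 and 18.4 FPKM in 16C embryos, 16.8, 26.9 and 19.4 in morulae, 14.2, 13.6 and 14.1 in early blastocysts and 8.09, 12, 10.2 and 10.2 in expanded blastocysts. PSME4, or PA200, an activator known for histone degradation in sperm development, was called in no comparison. Its lowest stage mean, 10.1 ± 1.59 FPKM (SD, n = 4), was that of expanded blastocysts. PSMF1 had 0.396 and 0.286 FPKM in MII oocytes, 1.64, 3.32, 3.6 and 3.63 in 2C embryos, 3.07, 2.46 and 2.33 in 4C embryos and 2.13, 3.89, 3.18 and 3.55 in 8C embryos. It had 1.67, 5.12 and 3.62 FPKM in 16C embryos, 4.97, 3.74 and 7.25 in morulae, 5.79, 5.01 and 8.16 in early blastocysts and 6.89, 6.56, 6.0 and 6.52 in expanded blastocysts. PSMF1, or PI31, which inhibits the isolated core, was at least 1.64 FPKM in every embryo library, and 0.396 and 0.286 in the MII libraries. It rose by 1.56 ± 0.29 (SE) in 2C embryos over MII oocytes (adjusted p = 0.0011), and this call was kept whichever single library was left out.

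**Figure D5:**
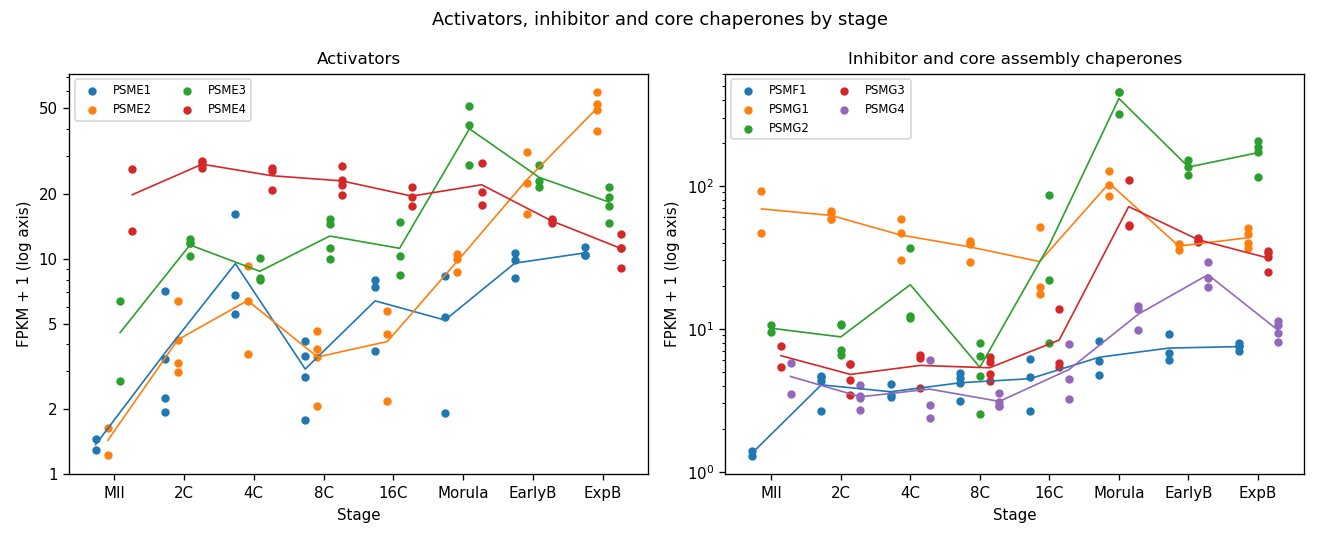
The panels plot FPKM + 1 on log axes by stage for the activators PSME1 to PSME4 (left), and for the inhibitor PSMF1 with the core assembly chaperones PSMG1 to PSMG4 (right); points are libraries and lines join stage means. PSME2 is highest in expanded blastocysts, PSME3 in morulae, and all 4 chaperones are higher in every morula library than in every 16C library.

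The chaperones that assemble the core were also higher in the morula: all 4 were called above 16C embryos, beside 28.1% of all genes called higher. All 4 were free of overlap, but the share of all genes without overlap was not counted. PSMG2 had 8.54 and 9.6 FPKM in MII oocytes, 9.87, 9.56, 5.56 and 6.07 in 2C embryos, 35.8, 11.3 and 10.8 in 4C embryos and 1.52, 3.63, 6.92 and 5.42 in 8C embryos. It had 6.95, 21 and 85 FPKM in 16C embryos, 453, 316 and 450.3 in morulae, 118, 135 and 149 in early blastocysts and 114, 186, 171 and 205 in expanded blastocysts. PSMG2, which pairs with PSMG1 to build the α ring, was highest in morulae, where its rise was 4.03 ± 0.56 (SE) (adjusted p = 2.0e-06). It had also risen in 16C over 8C embryos (2.32, adjusted p = 0.0037), and every 16C library was above every 8C library.

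PSMG1 had 99.8, 84.1 and 126 FPKM in morulae, against 16.5, 18.5 and 50.5 FPKM in 16C embryos (difference 1.99, adjusted p = 9.4e-06). PSMG3 had 52.3, 51.1 and 108 FPKM in morulae, against 4.36, 4.76 and 12.8 FPKM in 16C embryos (difference 3.16, adjusted p = 2.5e-08). PSMG4 had 13.4, 12.7 and 8.77 FPKM in morulae, against 2.25, 6.82 and 3.46 FPKM in 16C embryos (difference 1.37, adjusted p = 6.0e-04). PSMG3 and PSMG4 form the second chaperone pair, and in each of the 3 genes the lowest morula library was above the highest 16C library. PSMG1 then fell in early blastocysts against morulae (-1.44, adjusted p = 6.1e-04), and PSMG4 in expanded against early blastocysts (-1.27, adjusted p = 0.0014), both without overlap. PSMG2 also fell in early blastocysts (-1.58, adjusted p = 0.024), a call that ended without Morula library 1 (adjusted p = 0.066), Morula library 3 (0.066), EarlyB library 1 (0.066) or EarlyB library 2 (0.053).

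Of the chaperones of the regulatory particle, none of PSMD5, PSMD9 and PSMD10 was called by limma in a successive comparison. PSMD9 had 14.2, 21.8, 17.7 and 20.2 FPKM in expanded blastocysts, against 36.7 and 42.5 FPKM in MII oocytes, with no overlap (difference -1.07, adjusted p = 3.5e-04), falling short of the limit without MII library 2 (difference -0.97) or ExpB library 1 (-0.96). PSME3IP1 had 11.5, 12.7, 12.1 and 14.5 FPKM in expanded blastocysts, against 38.3 and 26.1 FPKM in MII oocytes (-1.26, adjusted p = 5.7e-06); without MII library 1 the difference was -0.99.

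In expanded blastocysts against MII oocytes 5 of the 14 core subunits were higher and 2 lower (median difference 0.64), and 10 of the 17 regulatory particle subunits were higher and none lower (median 1.38), against a median of 0.33 over all genes. Called in either direction were 50% of the core subunits, near the 53.7% of all genes. Of the regulatory particle subunits 58.8% were called, all higher, beside 32.8% of all genes called higher and 20.9% lower. The 5 largest rises were those of PSMC5 (5.19, adjusted p = 3.7e-10), PSME2 (given above), PSMA1 (4.67, adjusted p = 5.2e-07), PSMA2 (4.53, adjusted p = 9.0e-06) and PSMG2 (4.05, adjusted p = 2.3e-06), all without overlap. These 5 were picked by size, and the share of all genes without overlap was not counted. Lower calls were those of PSMA4, PSMA5, PSMB8, PSMB9, PSMD9 and PSME3IP1. The call of PSMA3 (1.53, adjusted p = 0.0077) ended without MII library 2 (0.81, adjusted p = 0.25), as did those of PSMG4 (adjusted p = 0.13) and PSMD7 (0.15, and 0.051 without MII library 1).

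Of 33 genes listed as partners of the proteasome (ubiquitin genes, shuttles, deubiquitinases and regulators of its synthesis), 30 were in the table and 29 tested. In morulae over 16C embryos 12 were higher and 3 lower, beside the 28.1% and 15% of all genes given above. Rises included UFD1, a cofactor of the VCP unfoldase (2.97, adjusted p = 7.6e-10), NFE2L2, a stress-response transcription factor (2.16, adjusted p = 9.7e-07), the ubiquitin receptor ADRM1 (1.92, adjusted p = 1.0e-06) and the shuttle factor UBQLN4 (1.7, adjusted p = 5.3e-09). NFE2L1, the transcription factor that drives proteasome genes in human and mouse cells, also rose (1.47, adjusted p = 1.4e-05), with means of 3.41 ± 0.866 FPKM in morulae and 0.615 ± 0.463 in 16C embryos (SD, n = 3 each).

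The 3 partners that fell were AKIRIN2, which brings proteasomes into the nucleus in human cells (-2.1, adjusted p = 7.3e-08), NGLY1, the glycanase that acts on NFE2L1 (-1.89, adjusted p = 5.9e-06), and the ubiquitin-activating enzyme UBA6 (-1.75, adjusted p = 2.4e-07). AKIRIN2 had a mean of 16.3 ± 2.1 FPKM in expanded blastocysts (SD, n = 4) and 940.0 ± 316 in MII oocytes (SD, n = 2), a fall of 5.74 (adjusted p = 3.8e-15). Over that whole course 13 partners were higher and 7 lower, beside 32.8% and 20.9% of all genes.

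Of the genes of antigen processing, 12 were in the table and 11 tested. In morulae over 16C embryos CALR, an endoplasmic reticulum chaperone, was higher (2.71, adjusted p = 1.5e-07) and TAP1, a subunit of the peptide transporter next to PSMB9, was lower (-1.14, adjusted p = 0.0059), a call that ended without 16C library 1 (adjusted p = 0.058), 16C library 2 (difference -0.98) or Morula library 1 (adjusted p = 0.063). In expanded blastocysts against MII oocytes 4 were higher and 1 lower, 45.5% of them, below the 53.7% of all genes called. Among the higher was B2M, the light chain of class I molecules (3.44, adjusted p = 2.4e-06).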

How the data were processed

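Polyadenylated RNA of 26 libraries from 8 stages was measured. The authors deposited 1 table of FPKM values (fragments on a gene, divided by its length in kilobases and by the library's fragments in units of 1e6) for 30186 genes. The tools named in the submitters' processing notes are featureCounts 2.0.1, SAMtools 1.9, HISAT2 2.1.0 and fastp 0.23.4. The build, the annotation and the strand setting are not given there or in the labels. Depth was recovered from the FPKM steps of small RNA genes, for which 99.7% to 100% of low values were whole reads within 0.05. Columns were matched to stages by the labels' titles.

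log2(FPKM + 1) of the 15766 genes with at least 1 FPKM in at least 2 libraries was fitted with limma 3.58.1 in R 4.3.3, as 8 stage means with an intensity trend, for 7 successive comparisons and expanded blastocysts against MII oocytes. Differences are on that scale, the later stage minus the earlier. Adjusted p-values are Benjamini-Hochberg values over all genes tested. The 4 ratios used permutation tests with 100000 resamples. The fit was also run on simulated independent values, with known shifts in some genes from the morula on. Those values held no effect shared by the genes of a library, so that run is no test of the calls reported here. There were 34 alternatives: another pseudocount, no filter, 3 other scalings, no trend, a replicate block, pairs of stages alone, and each library left out.

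Members and gene lists were chosen with earlier results of these data known. Named in full were the paralogous core subunits, activators, the inhibitor, and called regulatory particle members, with up to 5 called members per direction and comparison; others were singled out after their values were seen. PSMB11 was below the filter, and SEM1, POMP and VCP were not analysed here. Some genes counted in the partner and antigen-processing lists are not reported here by name.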

Additional observations from a re-analysis of the deposited data

Results flagged for a closer look

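In stages with 4 libraries, single values lay far from the other 3 in 10 of the 139 gene and stage groups examined, where chance flags about 5%. Those in 2C embryos were in libraries 1 and 4. PSMA7 was 148.9 FPKM in 2C library 1, against 72.0 to 82.3 in the other 3. PSMB5 was 80.2 FPKM and PSMF1 1.64 FPKM in that same library, each below the other 3. PSMA8 was 2.31 FPKM in 2C library 4, above the other 3, and PSMD8 was 5.08 FPKM there, below them.

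In expanded blastocysts, PSMB2 was 120.0 FPKM and PSMB7 163.2 FPKM in library 1, each below the other 3 libraries. PSMC3 was 8.66 FPKM and PSMD4 4.67 FPKM in library 2, each below the others. PSME1 was 10.3 FPKM in library 4, above 9.40 to 9.44 in the others.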

How the results depend on the processing

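Of 93 calls of members, 55 were kept under all 34 alternatives and none changed direction; the report names those that ended without 1 library. The count in 2C embryos against MII oocytes was 5 with no filter on low values (8 as reported) and 2 to 10 over fits leaving out 1 library. The count in 8C against 4C embryos was 0 to 3 over such fits. In 16C against 8C embryos it was 2 with only these stages fitted (6 as reported) and 5 to 9 over such fits. In expanded against early blastocysts it was 2 with median-ratio scaling (5 as reported) and 5 to 7. The other ranges were 24 to 31 in morulae against 16C embryos, 14 to 17 in early blastocysts against morulae, 26 to 31 in expanded blastocysts against MII oocytes and 0 in 4C against 2C embryos. Higher and lower calls split 5 and 3 in 2C against MII with median-ratio or quantile scaling (6 and 2 as reported). The split was 5 and 2 on the TPM scale and 4 and 2 with quantile scaling in 16C against 8C (5 and 1). It was 5 and 10 in early blastocysts against morulae with quantile scaling (3 and 13), 2 and 3 in expanded against early blastocysts with quantile scaling (1 and 4), and 21 and 10 on the TPM scale or 20 and 9 with median-ratio scaling in expanded blastocysts against MII (23 and 6). These scalings moved the median of all genes: in morulae against 16C embryos it was 0.13 (TPM), 0.18 (median-ratio) and -0.01 (quantile), against 0.32. Among others, quantile scaling ended the calls of PSMC1 in 2C embryos and of PSMA1, PSMA4, PSMB7 and PSMG2 in early blastocysts, and TPM or quantile scaling those of PSMA1, PSMA3, PSMB1 and PSMB2 in morulae; the cause was not tested. The labels do not say that replicate numbers pair libraries. With stage means removed, same-numbered libraries of different stages correlated at -0.15 to 0.40 (median 0, 80 pairs). Those with different numbers correlated at -0.4 to 0.34 (median 0, 214 pairs). These ranges cannot exclude that some libraries are paired. With a replicate block the counts were 7, 0, 0, 7, 28, 17 and 7 in stage order and 30 end to end, and the adjusted p-values of the 4 ratios (permutation tests) were 8e-05, 0.00014, 0.0122 and 0.0122. Without 1 library the ratios' adjusted p-values ranged from 2e-05 to 0.0271.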
